A study of Homo sapiens with 6 samples.

Results

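The genes described here are the HOXA and HOXB homeobox genes, the long non-coding RNAs HOTAIRM1 and HOTTIP of the HOXA cluster, and the PBX, MEIS and PKNOX genes, measured in siHOTAIR and siNC libraries. They were chosen by gene identifier and name, not by their values, and 28 of the 30 genes named had a feature among the 19589 of the authors' deposited table. HOXB1 and PKNOX2 were not analysed here. Ribosomal RNA was removed from total RNA before sequencing of cells that had received an siRNA against HOTAIR (siHOTAIR) or a negative control siRNA (siNC). The labels name the cells HepG2, an established human hepatoblastoma line, and list 3 libraries per group. The siRNA sequence, its dose and the time after transfection were not given in the labels. The means of the authors' deposited table are sums of whole reads from 5 libraries, 3 of siHOTAIR and 2 of siNC, and every value per library below was recovered by splitting those means into reads. Whether the libraries were separate cultures is not stated, so the p-values reflect only the variation among them, and that may be technical.

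HOX genes encode transcription factors with a homeodomain and lie in clusters whose order along the chromosome follows the body axis: genes at the 3' end act towards the head and genes at the 5' end towards the tail and the distal limb. HOX proteins bind DNA with partners of the TALE class of homeodomain proteins, of which PBX proteins contact HOX directly and MEIS and PKNOX proteins contact PBX. HOTAIR, a long non-coding RNA transcribed within the HOXC cluster, was described as acting on other HOX loci through histone-modifying complexes.

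HOTAIR itself was at 62.4, 78.2 and 59.7 normalized counts (reads divided by the library's size factor) in the siHOTAIR libraries and at 202 and 150 in the siNC libraries. On the log2 scale HOTAIR fell by 1.37 in the authors' deposited table (SE 0.197, adjusted p = 5.6e-11). Size factors ran from 0.888 to 1.15 in siHOTAIR and from 0.893 to 1.19 in siNC, and over 6234 features with a mean of 20 to 300 the libraries held 680024 to 981069 reads each. In bulk RNA, fewer cells of a type and less RNA per cell cannot be told apart. No pair of libraries of 1 group was within counting noise of the other, with a chi-square per feature of 1.35 to 1.87, where counting noise alone gives about 1. The liver markers did not follow the HepG2 label. Of 20 listed, 12 had a feature and 8 of these had a mean under 1, among them APOA1 (mean 0.382) and SERPINA1 (mean 0.167), while CEBPA had a mean of 226 and HNF4A of 5.06. The epithelial keratins KRT8 and KRT18 had means of 22106 and 13319. The other listed epithelial markers with a feature were low. KRT19 had a mean of 14.7, TP63 of 1.33, KRT14 of 0.173 and EPCAM of 0.173.

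Of the 27 genes with an adjusted p in the authors' deposited table, 3 rose, 7 fell and 17 did not pass an adjusted p of 0.05. That is 37.0% called, against 40.4% of all 14597 features with an adjusted p, so the share of called genes was near that of all features and is no result about these genes. In all features 20% rose and 20.4% fell. The 18 HOXA and HOXB genes with an adjusted p gave 0 that rose and 6 that fell (33.3%), and the 7 TALE genes gave 2 that rose and 1 that fell. The median log2 fold change of the 27 genes was -0.16, beside 0.01 over all features. The genes that fell were HOXA11, HOXA13, HOXB6, HOXB7, HOXB8, HOXB9 and PBX2, and those that rose were HOTAIRM1, MEIS3 and PKNOX1.

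**Figure D1:**
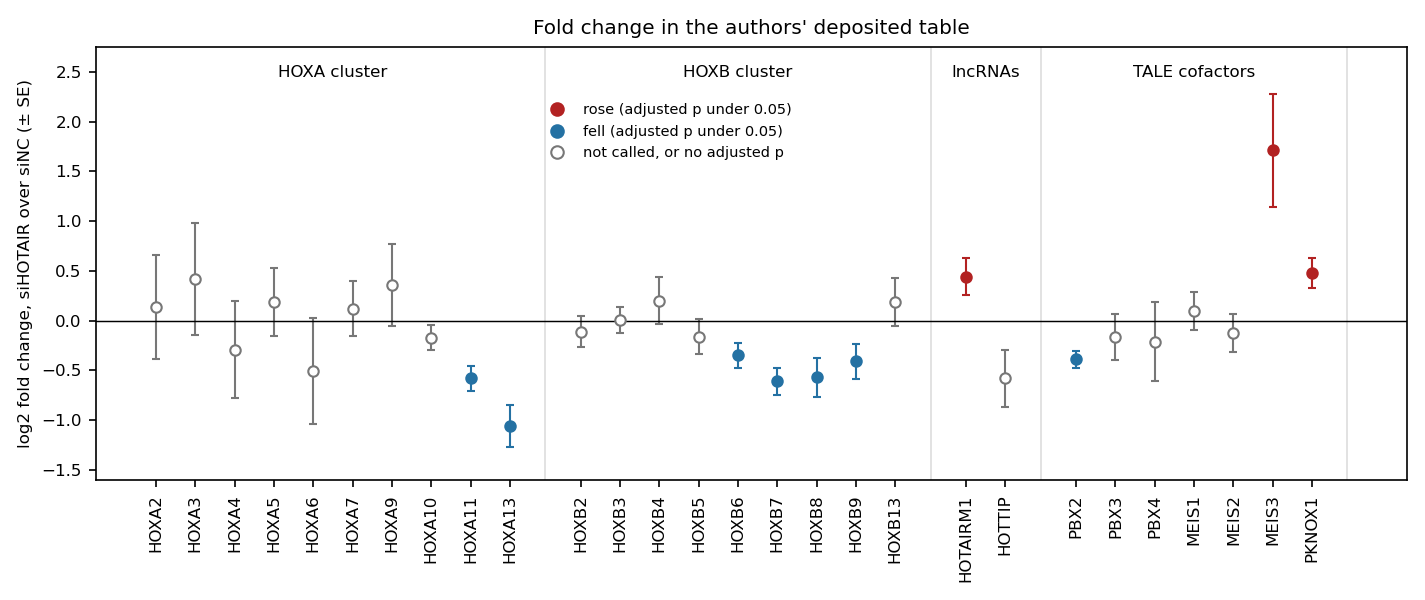
Log2 fold change of each gene (siHOTAIR over siNC, ± SE) in the authors' deposited table, with HOX genes in order from the 3' end of each cluster. Filled points passed an adjusted p of 0.05: the 6 HOX genes that fell lie at HOXA11, HOXA13 and HOXB6 to HOXB9, and HOXB13 is not among them.

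In the HOXA cluster the largest change was that of HOXA13, which patterns the hand, foot and genital tract. HOXA13 was at 63.2, 55.7 and 47.3 normalized counts in the siHOTAIR libraries, against 117 and 122 in the siNC libraries. Every siHOTAIR value was under both siNC values, and HOXA13 was 2.09-fold lower in the authors' deposited table (log2 -1.06, SE 0.211, adjusted p = 3.8e-06). HOXA13 is also the one gene of the set in the authors' own list of differential genes, whose 766 features all changed by at least 2-fold and, where they have an adjusted p, had one of at most 0.000976.

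HOXA11, which acts in the forearm and in the uterus, was at 237, 230 and 220 normalized counts in siHOTAIR libraries and at 334 and 356 in siNC libraries. The groups did not overlap, and HOXA11 fell by 0.58 on the log2 scale in the authors' deposited table (SE 0.123, adjusted p = 1.55e-05). Its neighbour HOXA10, a regulator of uterine and blood cell development, was at 267, 248 and 242 in siHOTAIR libraries and at 280 and 290 in siNC libraries. These groups did not overlap either, but the difference was small, with a log2 fold change of -0.17 in the authors' deposited table (SE 0.125, adjusted p = 0.297).

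The 7 other HOXA genes did not pass the test or had no adjusted p, and their reads were few. HOXA7 was the highest of them, at 50.2, 38.5 and 45.1 normalized counts in siHOTAIR and 42.7 and 39.2 in siNC. HOXA5, known for its part in lung development, was at 23.4, 30 and 32.7 in siHOTAIR and at 22.6 and 26.9 in siNC. Both genes overlapped between the groups. HOXA9, known from acute leukaemia, was at 16.5, 19.3 and 21.4 in siHOTAIR and at 16.7 and 11.2 in siNC. HOXA2, HOXA3, HOXA4 and HOXA6 had means of 1.36, 5.94, 11 and 7.04, and the authors' deposited table lists no adjusted p for HOXA2, which had 7 reads over the 5 libraries. A change of HOXA3 anywhere between -0.68 and 1.52 on the log2 scale lies within the 95% interval from the authors' standard error, so its fold change was not resolved.

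In the HOXB cluster 4 neighbouring genes fell. HOXB7, often described as raised in tumours, was at 167, 169 and 160 normalized counts in siHOTAIR libraries, against 245 and 262 in siNC libraries. HOXB7 was 1.52-fold lower in the authors' deposited table (log2 -0.61, SE 0.139, adjusted p = 8.24e-05). HOXB8, which can keep mouse blood progenitors dividing, was at 76.2, 70.7 and 83.4 in siHOTAIR libraries, against 115 and 115 in siNC libraries. For HOXB8 the authors' deposited table gives -0.57 (SE 0.196, adjusted p = 0.0117), and in both genes each siHOTAIR value was under each siNC value.

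HOXB6 was at 226, 233 and 264 normalized counts in siHOTAIR libraries and at 316 and 296 in siNC libraries, with a log2 fold change of -0.35 in the authors' deposited table (SE 0.127, adjusted p = 0.0183). HOXB9, which acts in thoracic patterning, was at 109, 158 and 124 in siHOTAIR libraries and at 182 and 165 in siNC libraries, with -0.41 in the authors' deposited table (SE 0.172, adjusted p = 0.0441). The highest siHOTAIR value of HOXB9, 158, came close to the lower siNC value, 165, and HOXB9 was the HOX call nearest to the threshold.

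The remaining HOXB genes overlapped between the groups. HOXB3 was at 243, 310 and 265 normalized counts in siHOTAIR and at 275 and 266 in siNC, and the 95% interval of its log2 fold change from the authors' standard error ran from -0.25 to 0.27. HOXB2, which patterns the hindbrain, was at 170, 173 and 148 in siHOTAIR and at 166 and 190 in siNC. HOXB5 was at 124, 107 and 151 in siHOTAIR and at 136 and 149 in siNC. HOXB4, used to expand blood stem cells, was at 81.4, 73.9 and 69.8 in siHOTAIR, and its siNC libraries were far apart, at 78.7 and 49.3. HOXB13, a prostate and hindgut factor that lies apart from the rest at the 5' end of the cluster, was at 57.2, 64.2 and 67.6 in siHOTAIR and at 58.6 and 50.4 in siNC. HOXB13 had a log2 fold change of 0.19 in the authors' deposited table (SE 0.242, adjusted p = 0.584), with an interval from -0.29 to 0.66.

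**Figure D2:**
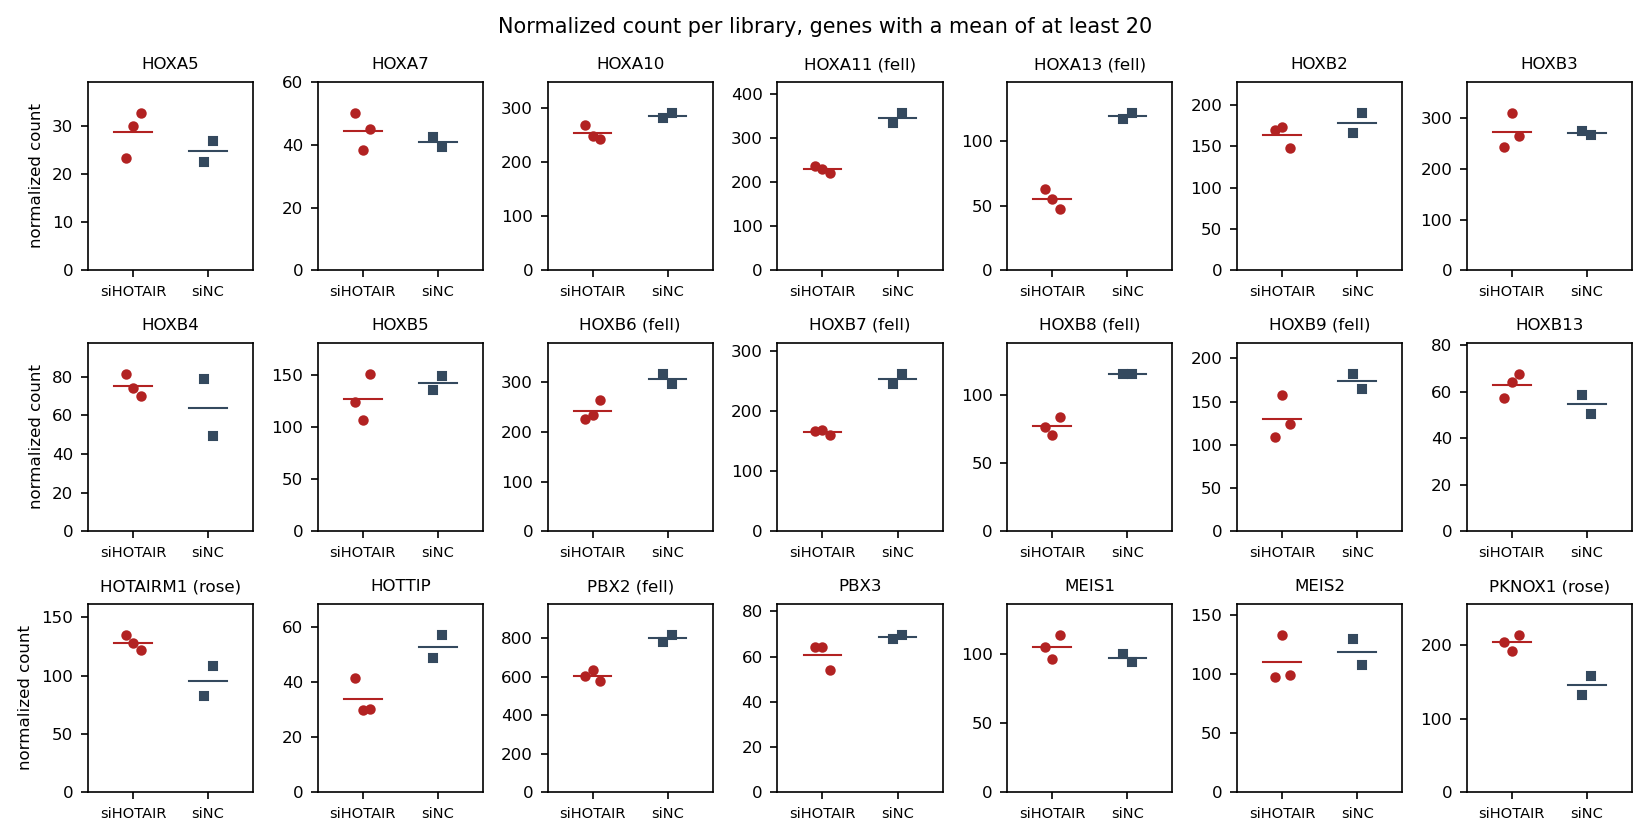
Normalized count per library (y axis, from 0) for the 21 genes whose mean was 20 or more, with siHOTAIR as circles on the left, siNC as squares on the right and each group's mean as a line. The siHOTAIR circles of HOXA11, HOXA13, HOXB6 to HOXB9 and PBX2 all lie below both siNC squares, and those of HOTAIRM1 and PKNOX1 above them. The circles of HOXA10, HOTTIP and PBX3, which the authors' adjusted p did not call, also lie below both squares. Of all features with a mean of 20 to 300, 63.3% had groups that did not overlap.

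By position, the 7 HOXA and HOXB genes of paralog groups 2 to 5 with an adjusted p gave 0 calls, beside 40.4% of all features. The 11 genes of groups 6 to 13 gave 6 that fell and 0 that rose, beside 20.4% and 20% of all features. The medians of the log2 fold change were 0.01 for groups 2 to 5 and -0.41 for groups 6 to 13. This division was chosen after the values were seen, and it carries no test. Levels per kilobase of transcript, in normalized counts, also differed along the clusters. In HOXA they were 0.833 in siHOTAIR and 0.618 in siNC for HOXA2, and reached 99.8 in siHOTAIR and 150 in siNC for HOXA11. In HOXB they ran from 18.2 in siHOTAIR and 15.7 in siNC for HOXB13 to 123 for HOXB6 in siHOTAIR and 185 for HOXB7 in siNC. In mean normalized counts (not per kilobase) the called HOXA11 (276) lay above every uncalled HOXA gene. The called HOXA13 (81.1) lay above all of them but HOXA10 (265). In HOXB the uncalled HOXB2 and HOXB3 lay at levels like those of the genes that fell.

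**Figure D3:**
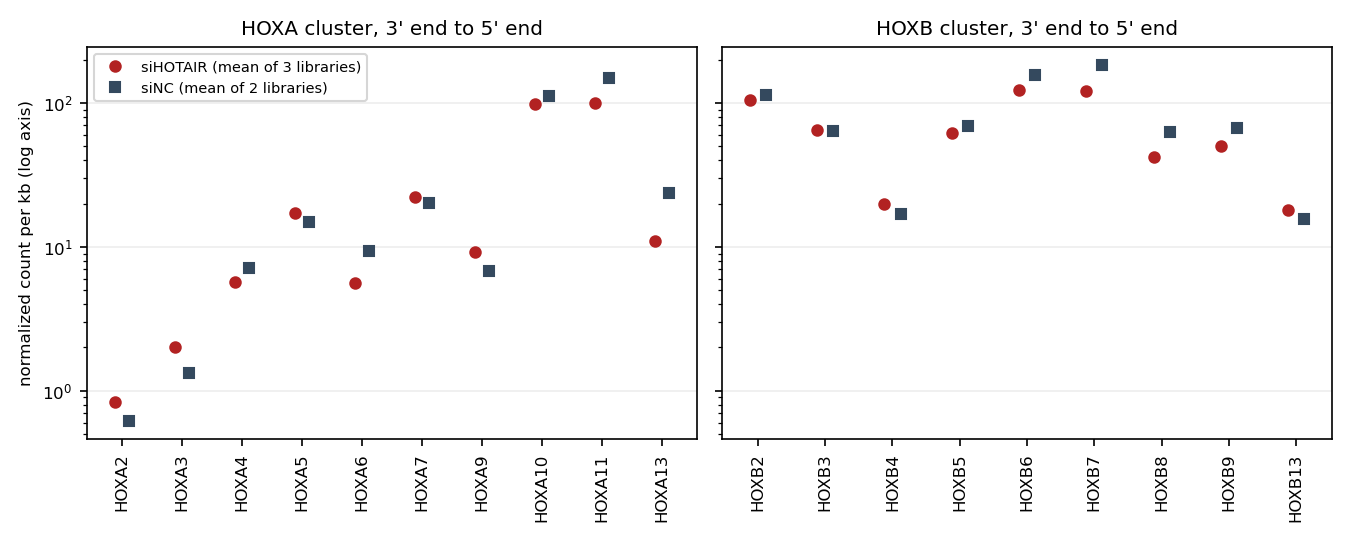
Mean normalized count per kilobase of transcript (log axis) for each HOXA and HOXB gene in order from the 3' end, with siHOTAIR as circles and siNC as squares. HOXA2 lies under 1 in both groups, HOXB2, HOXB6 and HOXB7 lie over 100 in both, and HOXA10 and HOXA11 lie over 100 in siNC and just under it in siHOTAIR.

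HOTAIRM1, transcribed at the 3' end of the HOXA cluster and described in myeloid differentiation, was at 135, 128 and 122 normalized counts in siHOTAIR libraries and at 82.9 and 108 in siNC libraries. It rose, with a log2 fold change of 0.44 in the authors' deposited table (SE 0.186, adjusted p = 0.0477), a call close to the threshold. HOTTIP, transcribed beyond HOXA13 at the other end and described as bringing WDR5 to the 5' HOXA genes, was at 41.6, 30 and 30.4 in siHOTAIR libraries and at 48.6 and 57.1 in siNC libraries. HOTTIP had -0.58 in the authors' deposited table (SE 0.284, adjusted p = 0.0903). limma with a mean trend, fitted to the recovered counts of all 6234 features with a mean of 20 to 300, gave HOTTIP -0.63 with an adjusted p of 0.023, so its call depends on the test.

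PBX2, a partner that HOX proteins bind directly, had the highest mean of the set. It was at 606, 635 and 578 normalized counts in siHOTAIR libraries, against 781 and 817 in siNC libraries, and fell with a log2 fold change of -0.39 in the authors' deposited table (SE 0.0895, adjusted p = 6.18e-05). The mean of PBX2 can be split into whole reads in 2 ways, and the values are those of the split with the smaller spread; the other would put siNC at 352 and 1254, a spread that gives an SE of 1.09, against the authors' 0.0895 in the deposited table. PBX3 was at 64.1, 64.2 and 54.1 in siHOTAIR and at 67.8 and 69.5 in siNC, with -0.16 in the authors' deposited table (SE 0.231, adjusted p = 0.625). PBX4 had a mean of 17.2, and the authors' deposited table gives its log2 fold change as -0.21 (SE 0.401, adjusted p = 0.735).

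Among the MEIS genes, whose proteins bind PBX and help hold it in the nucleus, MEIS3 rose. Its reads were few, with 13, 11 and 7 in the siHOTAIR libraries and 2 and 1 in the siNC libraries. Pooled over libraries and divided by the summed size factors, the 31 siHOTAIR reads were 7.25 times the 3 siNC reads. The exact 95% counting interval of that ratio, from 2.26 to 37.0, covers counting error only. In the authors' deposited table MEIS3 rose with a log2 value of 1.71 (its SE was 0.57 and its adjusted p = 0.00878). That value is 3.28-fold, less than the ratio of reads, since deposited fold changes are smaller in size than such ratios where reads are few. MEIS1, a cofactor of HOXA9 in leukaemia, was at 105, 96.4 and 114 normalized counts in siHOTAIR and at 100 and 94.1 in siNC. MEIS2 was at 97.9, 133 and 99.1 in siHOTAIR and at 130 and 108 in siNC. Both MEIS1 and MEIS2 overlapped between the groups and did not pass.

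PKNOX1, also called PREP1, binds PBX in the way the MEIS proteins do. It was at 204, 192 and 213 normalized counts in siHOTAIR libraries, against 132 and 158 in siNC libraries, and every siHOTAIR value was over both siNC values. PKNOX1 rose, with a log2 fold change of 0.48 in the authors' deposited table (SE 0.153, adjusted p = 0.00566). In per-kilobase levels PBX2 stood at 189 in siHOTAIR and 249 in siNC, above PKNOX1 at 40.5 in siHOTAIR and 29 in siNC.

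The limma fit gave the same calls as the authors' adjusted p for the 8 genes with a mean of 20 to 300 that the authors' table calls, and added HOTTIP. It called 9 of 20 such genes (45.0%), beside 46.4% of the 6234 features; 2 rose and 7 fell, where 19.1% of the features rose and 27.4% fell. In 11 of the 20 genes the groups did not overlap (55.0%), beside 63.3% of the features. In 9 of them siHOTAIR lay below, as in 36.6% of the features, and in 2 above, as in 26.8%. Without the siNC library whose size factor was 1.19, 1 siNC library is left, so only log2 fold changes of that limma fit are given here. They were -0.64 for HOXA11, -1.14 for HOXA13, -0.66 for HOXB7 and -0.59 for HOXB8. Changes were smaller than with all libraries for HOXB6 (-0.30 against -0.35), HOXB9 (-0.35 against -0.42), HOTAIRM1 (0.25 against 0.44) and PKNOX1 (0.36 against 0.48). They were larger for HOXB4 (0.59 against 0.26) and HOTTIP (-0.75 against -0.63). Without the siHOTAIR library whose size factor was 1.15, HOXB9 (-0.30, limma adjusted p = 0.0974) and HOTAIRM1 (0.40, limma adjusted p = 0.0509) did not pass. HOTTIP passed in 2 of the 5 limma fits that leave out 1 library.

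Several HOX genes share sequence with transcripts of the opposite strand, and no source used here says whether strand was used in counting, so reads of such pairs cannot be told apart. By the GENCODE annotation, HOXA11 overlaps HOXA11-AS and HOXB6 overlaps HOXB-AS3. HOXA11-AS was at 211, 234 and 223 normalized counts in siHOTAIR and at 224 and 222 in siNC, without the difference seen in HOXA11. The ratio of HOXA11 to HOXA11-AS was 1.12, 0.982 and 0.985 in siHOTAIR libraries and 1.49 and 1.61 in siNC libraries (exact permutation test, two-sided, p = 0.1, the smallest p that 3 against 2 libraries allow). The ratio of HOXB6 to HOXB-AS3 was 2.35, 1.77 and 1.77 in siHOTAIR libraries and 2.52 and 2.54 in siNC libraries (exact permutation test, two-sided, p = 0.2). HOXA13, HOXB7, HOXB8 and HOXB9 overlap no exon of an opposite-strand gene in that annotation.

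The HOXB cluster also holds MIR196A1, between HOXB9 and HOXB13, whose mature product is known to direct cleavage of the HOXB8 mRNA. The mature sequence and the best ungapped partner of it in the 3' UTR of HOXB8 and of the 3 other HOX genes measured here whose best partner pairs with the whole seed are shown, since HOXB7 and HOXB8 fell and HOXA7 and HOXA9 did not pass. The miRNA is from RefSeq (GRCh38.p14) with its seed, bases 2 to 8, in capitals, and the sites are from GENCODE transcripts with paired bases in capitals.
hsa-miR-196a-5p: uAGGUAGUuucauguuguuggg
HOXB8: CCCAACAACATGAAACTgCCTA
HOXB7: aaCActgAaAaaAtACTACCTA
HOXA7: CCtActccCcTaAAACTACCTA
HOXA9: aCaAAaggaAaGAAACTACCTt
The HOXB8 site pairs at 21 of 22 bases and forms a G:U pair at base 5 of the miRNA, counted from its 5' end, while the HOXB7, HOXA7 and HOXA9 sites pair at 13, 15 and 14. The precursor gene MIR196A1 was at 3.47, 6.42 and 5.63 normalized counts in siHOTAIR and at 0.837 and 2.24 in siNC, and the authors' deposited table lists no adjusted p for it. These libraries do not measure mature miRNAs, and a match is a description of sequence.

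Promoter windows, 250 bases before to 50 after the gene start in RefSeq (GRCh38.p14), gave 27 windows of 18 of the 30 genes, with none for HOXB2 to HOXB13, and were searched on both strands for TGATNNAT, a site of HOX with PBX, and TGACAG, a site of MEIS and PKNOX. TGATNNAT was in 3 of 27 windows (11.1%), against 7.4% of 35116 promoters, and TGACAG in 4 of 27 (14.8%), against 15.8%. Of the 5 called genes with a window (HOXA11, HOXA13, PBX2, MEIS3 and PKNOX1), HOXA13 alone held either motif, with TGACAG just after its start at chr7:27200058-27200087 on the minus strand, shown with the motif in capitals.
HOXA13: ggctcgggctaTGACAGcctccgtgctcct

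Other genes of the HOX system were read from lists, beside all features with an adjusted p, of which 20% rose and 20.4% fell. In the HOXC and HOXD clusters 2 of 13 genes rose and 1 fell (median -0.07): HOXC10 (0.45) and HOXC11 (0.36) rose and HOXD11 (-1.51) fell in the authors' deposited table. HOXD11 rested on a mean of 5.45. Of 9 antisense and other non-coding genes of the clusters, 0 rose and 0 fell (median log2 fold change 0.00), with HOXC-AS1 at -0.34 (adjusted p = 0.324), HOXC-AS2 at 0.21 (adjusted p = 0.598) and HAGLROS at -0.27 (adjusted p = 0.709) in the authors' deposited table. Of 5 other TALE genes TGIF1 (-0.22) fell and 0 rose.

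Of 21 regulators of HOX transcription 12 rose (57.1%) and 2 fell (9.52%), beside 20% and 20.4% of all features. Their median log2 fold change was 0.27, and all 21 had a mean over 100, while all features include lower ones. The leading ones that rose were DOT1L (0.94, adjusted p = 4.17e-23), a histone methyltransferase tied to HOXA9 expression in leukaemia, and the retinoic acid receptors RARA (0.63, adjusted p = 1.13e-09) and RARG (0.58, adjusted p = 2.52e-07) in the authors' deposited table. WDR5 (0.42, adjusted p = 1.75e-05), a core subunit of histone methyltransferase complexes, rose and ASH2L (-0.47, adjusted p = 8.24e-05), its partner in them, fell in the authors' deposited table, as did HNRNPA2B1 (-0.31, adjusted p = 0.000822), an RNA-binding protein. Of 12 binding partners and inhibitors 4 rose and 2 fell (median 0.18). PBXIP1, a protein that binds PBX and keeps it from DNA, rose (0.73, adjusted p = 4.96e-19) in the authors' deposited table, while the histone deacetylase HDAC3 had -0.58 and fell in that table. Of 5 genes next to the clusters with an adjusted p, 3 fell and 0 rose, beside 20.4% and 20% of all features. The 3 that fell were HIBADH (-0.64) and SKAP2 (-0.44) on the HOXA side and CALCOCO2 (-0.56) on the HOXB side in the authors' deposited table.

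**Figure D4:**
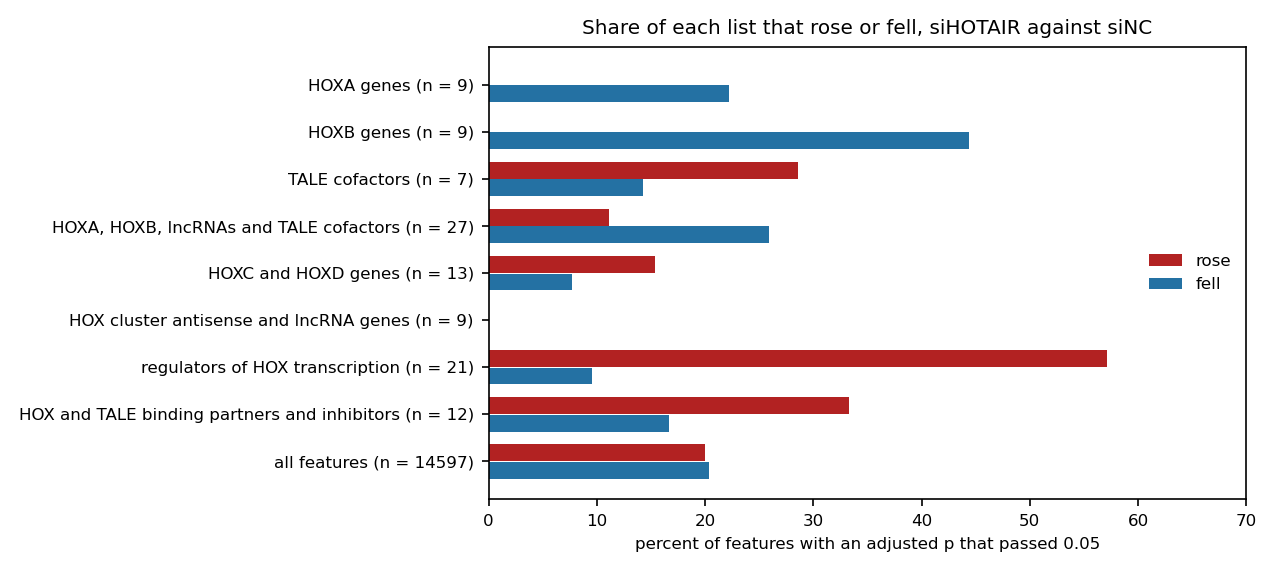
Percent of the genes with an adjusted p that rose (upper bar of each pair) or fell (lower bar), for 8 groups of genes and for all features, in the authors' deposited table. HOX regulators had 57.1% that rose, beside 20% of all features. All 21 of these regulators had a mean over 100, while all features include lower ones. HOXB genes had 44.4% that fell (4 of 9) and HOXA genes 22.2%, beside 20.4% of all features.

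Some markers of other cell types differed between the groups and others did not. Of 6 fibroblast markers 5 had a feature, and 3 of the 4 with an adjusted p rose, beside 20% of all features. These were COL1A1 (0.86), PDGFRB (1.24) and DCN (1.77) in the authors' deposited table. The summed level of the 4 with recovered reads was 366 to 392 normalized counts in siHOTAIR and 158 to 183 in siNC, of which PDGFRB made up 323 to 340 in siHOTAIR and 118 to 157 in siNC. COL3A1, in the same sum, averaged 25.9 in siHOTAIR and 27.8 in siNC and did not pass (log2 -0.07, adjusted p = 0.904 in the authors' deposited table). Among 5 endothelial markers, VWF (1.85) and ENG (0.54) rose in the authors' deposited table. VWF rested on a mean of 5.38, and PECAM1 did not pass (-0.16, adjusted p = 0.859 in the authors' deposited table). Over VWF, PECAM1 and CDH5, most of it from CDH5 (mean 83.2, log2 0.47, adjusted p = 0.0675 in that table), the summed level was 87.8 to 118 in siHOTAIR and 72 to 73.9 in siNC. Of 5 leukocyte markers CD68 (-0.47) fell in the authors' deposited table, and LYZ had 0.93 without passing there (adjusted p = 0.197). The markers PTPRC and CD3E were not analysed here. The part of these marker genes in the HOX and TALE results was not tested.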

How the data were processed

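Total RNA was sequenced from libraries labelled siHOTAIR and siNC (3 each). The authors used HTSeq 0.6.1, DESeq, DESeq2 and build hg19, per the submitters' processing notes. No source used here names the aligner, annotation or strand setting. The deposited tables hold the authors' comparison, with 0 columns of single libraries. The mean is a signal deposited by the authors, counts divided by size factors and averaged over libraries. The log2 fold changes and standard errors, the score in the statistic column, and both raw and adjusted p-values were deposited by the authors. The deposited log2 fold changes lie nearer to 0 than the ratios of group means, most where the standard error is large. For HOXD11 the deposited value is 0.352-fold, while the siHOTAIR mean was 18.8% of the siNC mean. Intervals from the authors' standard errors are centred on the deposited values. A second deposited table holds the same values. Because counts per library were not in the files, the planned count test was not run, and the planned fallback was used: the authors' adjusted p under 0.05, over all features.

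Reads per library were recovered from the means, which are whole-number sums of 5 steps. A step was assigned to siHOTAIR when every feature with that single read had a deposited fold change above 0, which gave 3 siHOTAIR and 2 siNC libraries. Their replicate numbers are unknown, and 1 labelled siNC library is unaccounted for. All 7363 features with a mean up to 20 and all 2905 from 20 to 100 had a single solution. From 100 to 300, splits had to lie within 0.05 (log2) of the ratio implied by the authors' fold change, and 1915 of 1916 features (to 200) and 1414 of 1414 (to 300) had a single solution; values per library above a mean of 100 are thus not independent of that fold change. On simulated means, 200 of 200 splits (mean 20 to 100), 150 of 150 (to 200) and 150 of 150 (to 300) were right. limma 3.58.1 (R 4.3.3) with a mean trend was fitted to log2(normalized count + 1) of features with a mean of 20 to 300, two-sided, with Benjamini-Hochberg adjustment. In simulated counts for these 6234 features it recovered 97 of 100 changes of 1 and 58 of 100 of 0.5 (log2), with 8 calls among 6034 unchanged features. The simulation changed only 200 features and gave all of them a common dispersion, while limma called 46.4% in the data. These figures therefore do not give the recovery or false calls in the data. The window up to 300 was chosen after seeing the data.

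Identifiers were matched to RefSeq symbols (GRCh38.p14), 19108 by gene ID and 386 by accession. Transcript lengths and overlaps are from GENCODE 29. The genes and lists were chosen with earlier results of these data known. Named genes were every member, HOTAIR, and up to 4 genes per list that passed, by smallest p, or 3 where none passed; a few genes so chosen are not reported here. MIR196A1, the liver, keratin and other markers, and the neighbours and antisense partners were also given; ASH2L and HNRNPA2B1 were added once values were known, as was the division by paralog group. Alternatives are a stricter threshold, other adjustment, a minimum mean, a 2-fold minimum, centring, a pseudocount of 0.5, limma-voom, other scaling and leaving out each library.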

Additional observations from a re-analysis of the deposited data

How the results depend on the processing

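With an adjusted p under 0.01, 6 genes of the set were called instead of 10 (HOXA11, HOXA13, HOXB7, PBX2, MEIS3 and PKNOX1). Of all 14597 features with an adjusted p, 4511 were then called instead of 5900. With a change of at least 2-fold as well, 2 were called, HOXA13 and MEIS3, and 912 of all features against 5900 without it. Adjusted over every feature with a p-value, 8 were called, without HOXB9 and HOTAIRM1, and 5643 of all features. With a mean of at least 20, 9 were called, without MEIS3, and 5687 of all features. Leaving out 1 library at a time, limma called 5 to 9 of the 20 genes with a mean of 20 to 300 (9 with all libraries) and 2 to 3 of the 8 with a mean of 20 to 100 (3 with all). Over all features with a mean of 20 to 100 it then called 751 to 1068 (1143 with all), and 2117 to 2779 with a mean of 20 to 300 (2895 with all). A lone siNC library is assumed to vary like the rest. HOTAIR, HOXA11, HOXA13, HOXB7 and HOXB8 passed in each of these 5 fits, with log2 fold changes of -0.64 to -0.54 for HOXA11, -1.21 to -1.0 for HOXA13, -0.66 to -0.57 for HOXB7 and -0.64 to -0.52 for HOXB8. The direction of 3 genes that were not called turned: HOXB4 had -0.07 to 0.59, MEIS2 -0.26 to 0.02 and HOXB3 -0.09 to 0.09, and HOXB3 had -0.0023 by limma-voom. Scaled to summed reads, HOXB9 (adjusted p = 0.0571) and HOTTIP (adjusted p = 0.0513) did not pass, and of all calls with a mean of 20 to 300 the share that rose was 51.6% instead of 41.1%; HOXA11, HOXA13, HOXB6, HOXB7 and HOXB8 still fell. The cause was not tested. No paired analysis was possible because the deposited tables hold no values for numbered libraries. Of the 7 genes with a mean under 20, MEIS3 was called, on 34 reads, and HOXA2, HOXA3, HOXA4, HOXA6, HOXA9 and PBX4 had wide intervals.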

Other observations

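Genes described in the literature as targets of HOX proteins were read from a list of 22, of which 16 had a feature. Of the 11 with an adjusted p, 1 rose and 4 fell, beside 20% and 20.4% of all features. The median log2 fold change of the 11 was -0.07. BMP2, a bone morphogenetic protein under HOXA13 control in the mouse limb, rose with a log2 fold change of 1.34 (adjusted p = 9.1e-59) in the authors' deposited table. CDKN1A, a cell cycle inhibitor that HOXA10 activates, fell (-0.92, adjusted p = 1.37e-35) in the authors' deposited table. The integrin subunit ITGB3 was at 6.93, 7.49 and 7.89 normalized counts in siHOTAIR libraries and at 27.6 and 39.2 in siNC libraries, and fell by 1.85 on the log2 scale in the authors' deposited table (SE 0.416, adjusted p = 5.08e-05).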
